A study of Mus musculus with 20 samples.

Results

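Unstimulated regulatory T cells (Tregs, a CD4 lineage that curbs immune responses) labelled Rheb1/2 KO were compared with WT Tregs across all genes named on the array. The arrays were chosen by their titles: 3 of unstimulated Rheb1/2 KO Tregs and 3 of unstimulated WT Tregs, 6 of the 20 arrays in the study. All 19505 genes with a named probe set were tested. The groups used here were unstimulated Rheb1/2 KO and its unstimulated WT; stimulated Rheb1/2 KO and its stimulated WT, 3 arrays each; and, from a second experiment, unstimulated RagAB KO and its own unstimulated WT, 2 arrays each. All mice had a C57BL/6 background, and the cells were CD4+CD25+, isolated by bead enrichment for CD4 followed by sorting, and then lysed for RNA. The sources used here do not give the driver of the deletion, the age of the mice, or what stimulated the cells of the Rheb experiment and for how long. Nor do they tie arrays to mice, so p-values cover only the variation among these arrays, which may be technical.

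Rheb is a small GTPase that, bound to GTP at the lysosome, switches on the kinase complex mTORC1, while amino acids bring mTORC1 to the lysosome through the Rag GTPases. Active mTORC1 promotes protein, nucleotide and sterol synthesis and cell cycle entry. In Tregs it is known for its part in their activation and suppressive function. The comparison asks which transcripts depend on Rheb before the cells are stimulated.

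Expression was read as log2 signal, on which a difference of 1 is a doubling. The 6 array medians lay between 7.67 and 7.74, and the medians of the negative control probe sets between 6.86 and 7.03. Between 2501 and 2659 genes in KO arrays, and between 2627 and 2914 in WT arrays, were brighter than 95% of the negative controls. Titles were followed for the state of each array, although 6 arrays (unstimulated KO and stimulated WT, 3 each) carry a treatment entry that contradicts them. T cell markers averaged 11.77 to 11.80 in KO arrays and 11.89 to 11.92 in WT arrays over 9 genes, and the 25 core Treg genes averaged above 10 in each array of both groups, although single members were dim. Foxp3, which defines Tregs, was not analysed here for want of a named probe set. Macrophage marker genes were brighter in KO than in WT arrays, 17 of 17 above 0 (array means of the list 7.77 to 7.87 in KO and 7.32 to 7.44 in WT), and their values are given with the results they touch. In such sorted bulk samples, fewer cells of a type and less RNA per cell cannot be told apart.

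In unstimulated Rheb1/2 KO Tregs, 99 of 19505 genes were called, 44 higher and 55 lower (limma, Benjamini-Hochberg adjusted p below 0.05). That is 0.508% of the genes tested, 0.226% higher and 0.282% lower, and 1986 genes (10.2%) had an unadjusted p below 0.05. Among the transcripts that fell were those of the cytokines Il10 and Il4, the ectoenzymes Nt5e (CD73) and Entpd1 (CD39), Lrrc32 (GARP, which presents latent TGF-beta), the mitotic genes Cdk1 and Kif15, and Mtor itself. Largest among the rises were the steroid-reducing enzyme Akr1c18, the adhesion molecule Dscam, the water channel Aqp11 (dim in both groups), the Notch ligand Jag1 and the semaphorin Sema6d. The changes were mostly under 1 log2 unit: the median size of the 99 was 0.79, the smallest 0.46, with 12 rises above 1 and 11 falls below -1. In all 99 called genes the KO and WT arrays did not overlap, against 14.7% of all genes. A low p on the same arrays selects for such separation, so it adds no support to the calls. Over all genes the median change was 0.02, with 10545 of 19505 above 0.

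**Figure D1:**
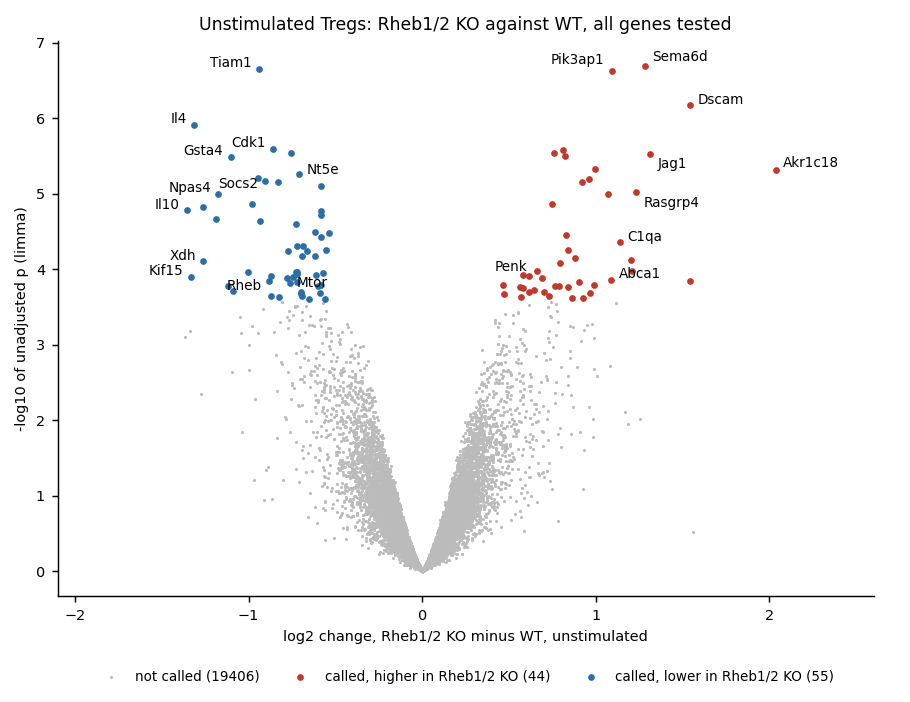
Each point is a gene, with its log2 change between unstimulated Rheb1/2 KO and WT Tregs (3 arrays each) on the x axis and -log10 of its unadjusted limma p on the y axis. The 44 genes called higher (red) and 55 called lower (blue) lie on both sides of the 19406 genes not called (grey).

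Each of the 12 arrays of the Rheb experiment was left out of the fit in turn, and 24 genes were called in all 12 of these refits. The 13 that rose were Akr1c18, Dscam, Jag1, Sema6d, Rasgrp4, Pik3ap1, Adgre4, Ly6c2, Cldn10, Jaml, Il18r1, Ndrg1 and Ifitm3. The 11 that fell were Il4, Npas4, Gsta4, Dapl1, Tiam1, Socs2, Cdk1, Pear1, Nfil3, Nt5e and Lclat1. Each left-out array ended between 7 (stimulated WT array 3) and 66 (unstimulated WT array 3) of the 99 calls, and Entpd1 was called in none of the 12 refits. None of the 99 changed sign in any refit. With only the 2 unstimulated groups in the fit 27 genes were called, and 28 with all 20 arrays. For the other called genes named below, the number of refits that kept the call is given with the range of the log2 change.

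The targeted genes and the mTORC1 pathway come first. Rheb measured 8.81, 8.82 and 9.05 in the KO arrays, against 9.83, 9.34 and 10.14 in the WT arrays. The groups did not overlap, and the transcript fell to 0.543 of the WT signal (-0.88 ± 0.17 log2, SE, adjusted p = 0.0413). The call held in 3 of 12 refits (without unstimulated WT array 2, stimulated WT array 1 or stimulated WT array 3), with changes from -1.10 to -0.70. Rhebl1, the closest paralogue of Rheb, measured 5.30, 5.22 and 5.11 in KO arrays, against 5.92, 5.76 and 5.10 in WT arrays. These values lie below the negative control medians and overlap (adjusted p = 0.522), so they do not check a deletion of that gene. Which parts of the genes were deleted is not stated, and a probe outside them checks nothing.

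Mtor, the kinase that Rheb activates, measured 7.25, 7.59 and 7.64 in KO arrays, against 8.20, 8.24 and 8.33 in WT arrays. The highest KO array lay below the lowest WT array, and Mtor fell by 0.76 ± 0.15 log2 (adjusted p = 0.0421; called in 3 of 12 refits, -0.84 to -0.64). Its call held only without stimulated WT array 3 or stimulated KO array 1 or 3. In stimulated arrays the KO effect on Mtor was -0.23 and was not called. The difference between the 2 effects, -0.54 ± 0.21, was not called either (adjusted p = 0.741).

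Of the 43 genes of mTORC1 activation and amino acid sensing measured, Rheb and Mtor fell and 41 were not called. The median of the 43 was -0.06. Sesn3, a sestrin that restrains mTORC1 signalling, measured 10.33, 10.26 and 10.37 in KO arrays and 10.96, 10.71 and 10.67 in WT arrays (-0.46 ± 0.11, adjusted p = 0.0833). Rptor, the scaffold subunit that defines mTORC1, measured 10.85, 10.71 and 10.85 in KO arrays and 10.40, 10.60 and 10.41 in WT arrays (0.33 ± 0.11, adjusted p = 0.266). The mTOR inhibitor Deptor (0.41, dim in both groups) and the translation repressor Eif4ebp1 (0.41), a substrate of mTORC1, were brighter in KO with no overlap, also without a call (adjusted p = 0.261 and 0.21). Sesn3, Rptor and Deptor were picked after their values were seen.

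**Figure D2:**
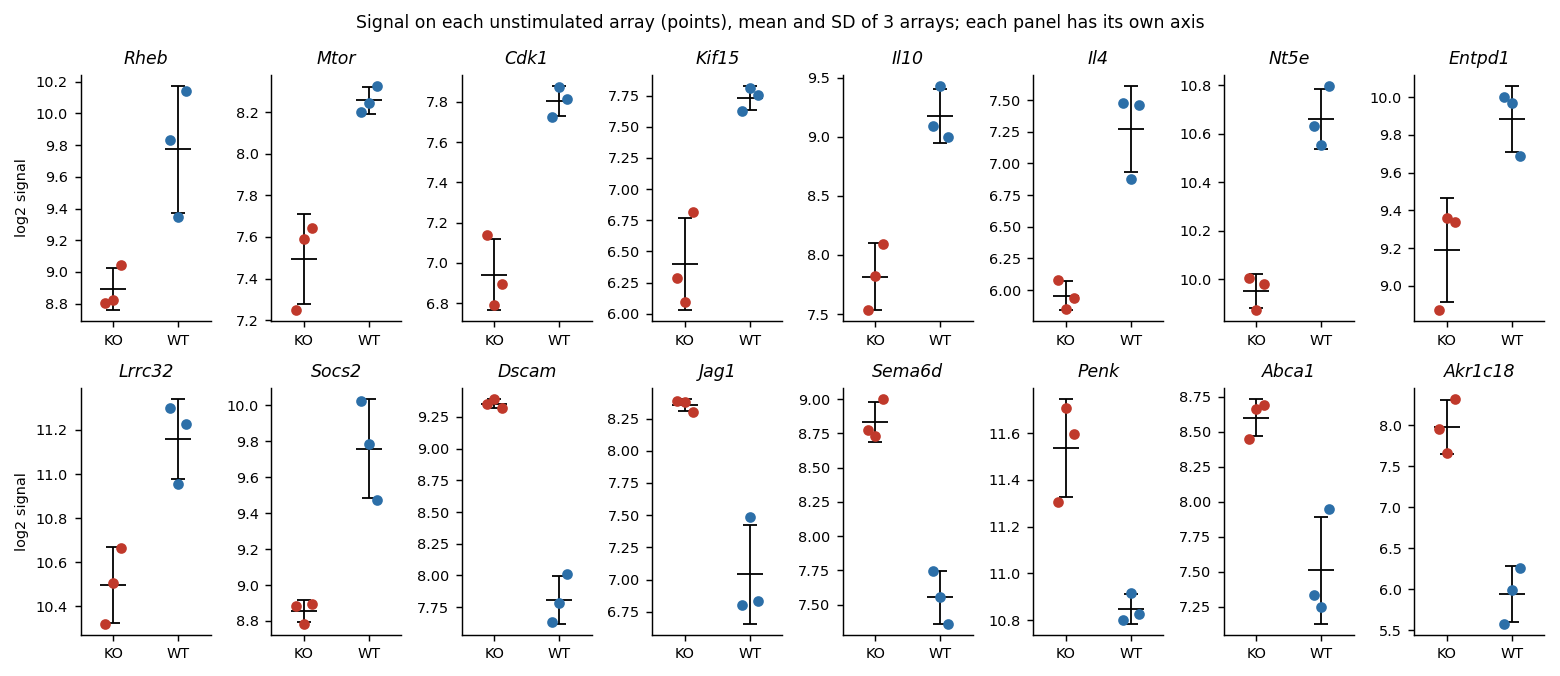
Log2 signal of 16 called genes on each unstimulated array, Rheb1/2 KO (red, left) and WT (blue, right), with the mean and SD of 3 arrays as black bars and a separate y axis for each gene. In none of the 16 panels do the KO and WT arrays overlap, and WT arrays spread most for Rheb (9.34 to 10.14) among the first 8 genes.

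Cell cycle genes were mostly lower in KO arrays. Of 50 genes of mitosis and the G2/M phase, Cdk1 and Kif15 fell, none rose and 48 were not called. The median of the list was -0.30, with 8 of 50 above 0, and its array means ran from 7.30 to 7.46 in KO and from 7.55 to 7.79 in WT arrays. Groups did not overlap for 16 of the 50, all lower in KO (7.08% of all genes tested were separate in that direction). Cdk1, the kinase that drives entry into mitosis, measured 7.14, 6.79 and 6.90 in KO arrays, against 7.72, 7.87 and 7.82 in WT arrays. It fell to 0.55 of the WT signal (-0.86 ± 0.11, adjusted p = 0.00536). Cdk1 lies below the negative control medians of KO arrays 2 and 3 (6.97 and 7.03), so the size of its fall is uncertain too. Kif15, a kinesin of the mitotic spindle, measured 6.29, 6.10 and 6.81 in KO arrays, against 7.62, 7.81 and 7.76 in WT arrays. Its fall was larger and less steady (-1.33 ± 0.25, adjusted p = 0.0399; 6 of 12 refits, -1.54 to -1.18). The Kif15 call ended without any 1 unstimulated WT array, unstimulated KO array 1 or 2, or stimulated KO array 2. Kif15 lies below the negative control medians in the KO arrays, so the size of its fall is uncertain.

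Promoters of both genes are shown because mitotic genes are known to share 2 short elements there, the cell cycle homology region (CHR, TTTGAA) and the CCAAT box, bound by the repressive DREAM complex and by NF-Y. Each window runs from 250 bases before to 50 bases after the gene's start, 5′ to 3′ on the gene's strand (RefSeq, GRCm38.p6). Capitals mark CHR matches (TTTGAA, or TTCAAA on the other strand) and CCAAT boxes (CCAAT, or ATTGG on the other strand). The Cdk1 window is chr10:69352863-69353162 (minus strand) and the Kif15 window chr9:122950831-122951130 (plus strand).

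Cdk1: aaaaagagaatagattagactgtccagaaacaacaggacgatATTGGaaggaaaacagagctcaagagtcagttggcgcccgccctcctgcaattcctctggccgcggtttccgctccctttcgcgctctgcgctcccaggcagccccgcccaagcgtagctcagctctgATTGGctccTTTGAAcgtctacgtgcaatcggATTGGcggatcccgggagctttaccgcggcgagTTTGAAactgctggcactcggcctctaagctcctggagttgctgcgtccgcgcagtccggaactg
Kif15: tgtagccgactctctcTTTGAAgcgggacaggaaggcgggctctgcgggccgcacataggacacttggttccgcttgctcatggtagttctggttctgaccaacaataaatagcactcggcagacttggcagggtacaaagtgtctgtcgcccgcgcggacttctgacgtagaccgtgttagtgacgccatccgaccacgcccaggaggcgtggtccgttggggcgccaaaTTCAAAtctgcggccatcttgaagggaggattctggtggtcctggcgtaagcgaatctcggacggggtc

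The Cdk1 window holds 2 CHR matches and 3 CCAAT boxes and the Kif15 window 2 CHR matches. Of the 40 mitotic genes with a promoter in the table, 30 (75.0%) held a CHR match on either strand, against 17.8% of the promoters of all genes tested. A CCAAT box was present in 30 of 40 (75.0%), against 42.2% of all, and both elements in 25 of 40 (62.5%), against 7.26%. These shares describe the list and not the knockout. Among the 43 genes called lower that have a promoter in the table, 23.3% held a CHR match.

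None of 43 replication and G1/S genes was called, with a median of -0.15 and 8 above 0. E2f2, a transcription factor of S phase entry, measured 8.67, 8.98 and 9.39 in KO arrays and 10.12, 9.80 and 9.87 in WT arrays (-0.92 ± 0.19, adjusted p = 0.0592). Rrm1, the large subunit of ribonucleotide reductase, stood at -0.60 and Top2a, the topoisomerase of mitotic chromosomes, at -0.64 (adjusted p = 0.159 and 0.155, both picked after their values were seen). Mki67, a marker of cycling cells, measured 9.25, 9.62 and 9.62 in KO arrays and 10.28, 9.42 and 10.10 in WT arrays. Its groups overlapped because of WT array 2. Among 14 CDK inhibitors and D-type cyclins none was called, and the inhibitor Cdkn1a stood at 0.46 ± 0.13 (adjusted p = 0.166), with each KO array (9.77, 9.86 and 9.87) above each WT array (9.52, 9.15 and 9.45). Outside the lists, the tubulin gene Tube1 (-0.78) and Tubgcp3, a subunit of the gamma-tubulin ring (-0.72), were called lower in 4 and 3 of 12 refits. Spice1, a spindle and centriole protein also outside the lists, went the other way and was called higher (adjusted p = 0.0306; 7 of 12 refits, 1.09 to 1.41).

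Sterol synthesis genes were nearly all lower in KO arrays without 1 of them reaching the threshold. Of 19 genes of sterol synthesis and uptake, 18 lay below 0 and none was called. The list median was -0.29, 7 genes were separate and lower (7.08% of all genes were), and 11 had an unadjusted p below 0.05 in that direction (5.09% of all). The mean of the 19 ran from 8.54 to 8.76 in KO arrays and from 8.95 to 9.03 in WT arrays. Fdps, which makes farnesyl pyrophosphate, measured 9.27, 9.09 and 9.15 in KO arrays and 9.60, 9.51 and 9.82 in WT arrays (-0.47 ± 0.11, adjusted p = 0.0937). Ebp, a sterol isomerase, measured 9.01, 8.36 and 8.91 in KO arrays and 9.48, 9.15 and 9.52 in WT arrays (-0.62 ± 0.16, adjusted p = 0.156). Idi1, the isomerase one step before Fdps, had the largest difference of the list (-1.04 ± 0.37) and a wide spread, with 5.99, 5.46 and 6.30 in KO arrays and 7.91, 6.82 and 6.13 in WT arrays. The KO values and the WT values 6.82 and 6.13 lie below the negative control medians, so the size of that difference is uncertain. The 1 gene above 0 was Nsdhl, at 0.09.

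All 15 sterol genes with a promoter in the table held a CCAAT box (42.2% of all genes tested did). Only 1 of the 15 held TCACNCCAC, the sterol regulatory element as searched (1.43% of all). These shares, too, describe the list and not the knockout. The Ebp and Idi1 windows are shown as the pair of largest difference among the genes above, with CCAAT boxes in capitals (ATTGG marks the box on the other strand), from chrX:8193463-8193762 (minus strand) and chr13:8885356-8885655 (plus strand).

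Ebp: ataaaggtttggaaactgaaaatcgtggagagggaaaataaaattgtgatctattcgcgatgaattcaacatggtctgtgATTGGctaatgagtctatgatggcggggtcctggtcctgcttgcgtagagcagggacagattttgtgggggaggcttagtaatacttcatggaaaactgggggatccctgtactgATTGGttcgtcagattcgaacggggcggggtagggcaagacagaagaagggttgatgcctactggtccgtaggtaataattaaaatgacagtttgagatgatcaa
Idi1: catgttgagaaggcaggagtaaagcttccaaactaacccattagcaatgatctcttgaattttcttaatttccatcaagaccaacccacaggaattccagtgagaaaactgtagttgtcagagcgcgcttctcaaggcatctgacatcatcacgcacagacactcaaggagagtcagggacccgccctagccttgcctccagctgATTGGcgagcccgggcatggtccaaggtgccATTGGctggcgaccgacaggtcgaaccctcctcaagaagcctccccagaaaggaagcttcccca

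Both windows hold 2 CCAAT boxes on the opposite strand. The cholesterol exporter Abca1, which works in the other direction, rose. Abca1 measured 8.45, 8.67 and 8.69 in KO arrays, against 7.34, 7.25 and 7.95 in WT arrays, 2.13 times the WT signal (1.09 ± 0.21, adjusted p = 0.0408; 4 of 12 refits, 0.96 to 1.31). The call held without unstimulated WT array 3 or any 1 stimulated WT array. It was the only called member of 10 efflux and LXR target genes, whose median was 0.03. Macrophages also express Abca1, and the macrophage markers were brighter in the same KO arrays; their part in the Abca1 value was not tested. None of 16 fatty acid synthesis genes was called (median -0.11), and the elongase Elovl6 stood at -0.81 ± 0.21 (adjusted p = 0.138).

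Gene lists of protein synthesis shifted little. None of 43 ribosome biogenesis genes (median 0.00), 35 cytosolic ribosomal protein genes (median 0.04), 37 translation factors and aminoacyl-tRNA synthetases (median -0.10) or 13 genes of the Myc network (median -0.04) was called. Myc itself measured 11.47, 11.40 and 11.52 in KO arrays and 11.35, 11.45 and 11.45 in WT arrays, a difference whose 95% interval runs from -0.16 to 0.26. Of 49 nuclear-encoded respiratory chain genes, 45 lay below 0, none was called and the median was -0.10. None of 26 glycolysis and HIF1 target genes was called (median -0.05). The same held for 32 lysosome and autophagy genes (median -0.06), 28 genes of the ATF4 and ER stress response (median -0.11) and 16 amino acid transporters (median 0.07). Among the transporters, Slc43a2, which carries large neutral amino acids, stood at -0.85 ± 0.21 and Slc7a7, a cationic amino acid transporter, at 0.35 ± 0.08, neither called (adjusted p = 0.123 and 0.113).

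In nucleotide and one-carbon metabolism, Xdh and Nt5e fell among 28 genes and 26 were not called. Xdh, which oxidises hypoxanthine and xanthine to uric acid, measured 7.85, 7.84 and 8.65 in KO arrays, against 9.65, 9.12 and 9.36 in WT arrays. It fell to 0.417 of the WT signal (-1.26 ± 0.22, adjusted p = 0.0315; 8 of 12 refits, -1.53 to -1.13, the call ending without unstimulated WT array 1 or 3 or KO array 1 or 2). Slc28a2b, annotated as a nucleoside transporter, also fell (-0.60, 3 of 12 refits). Among 21 heat shock chaperones 18 lay below 0 and none was called, with Hspb1 at -0.56 ± 0.12 (adjusted p = 0.0695).

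**Figure D3:**
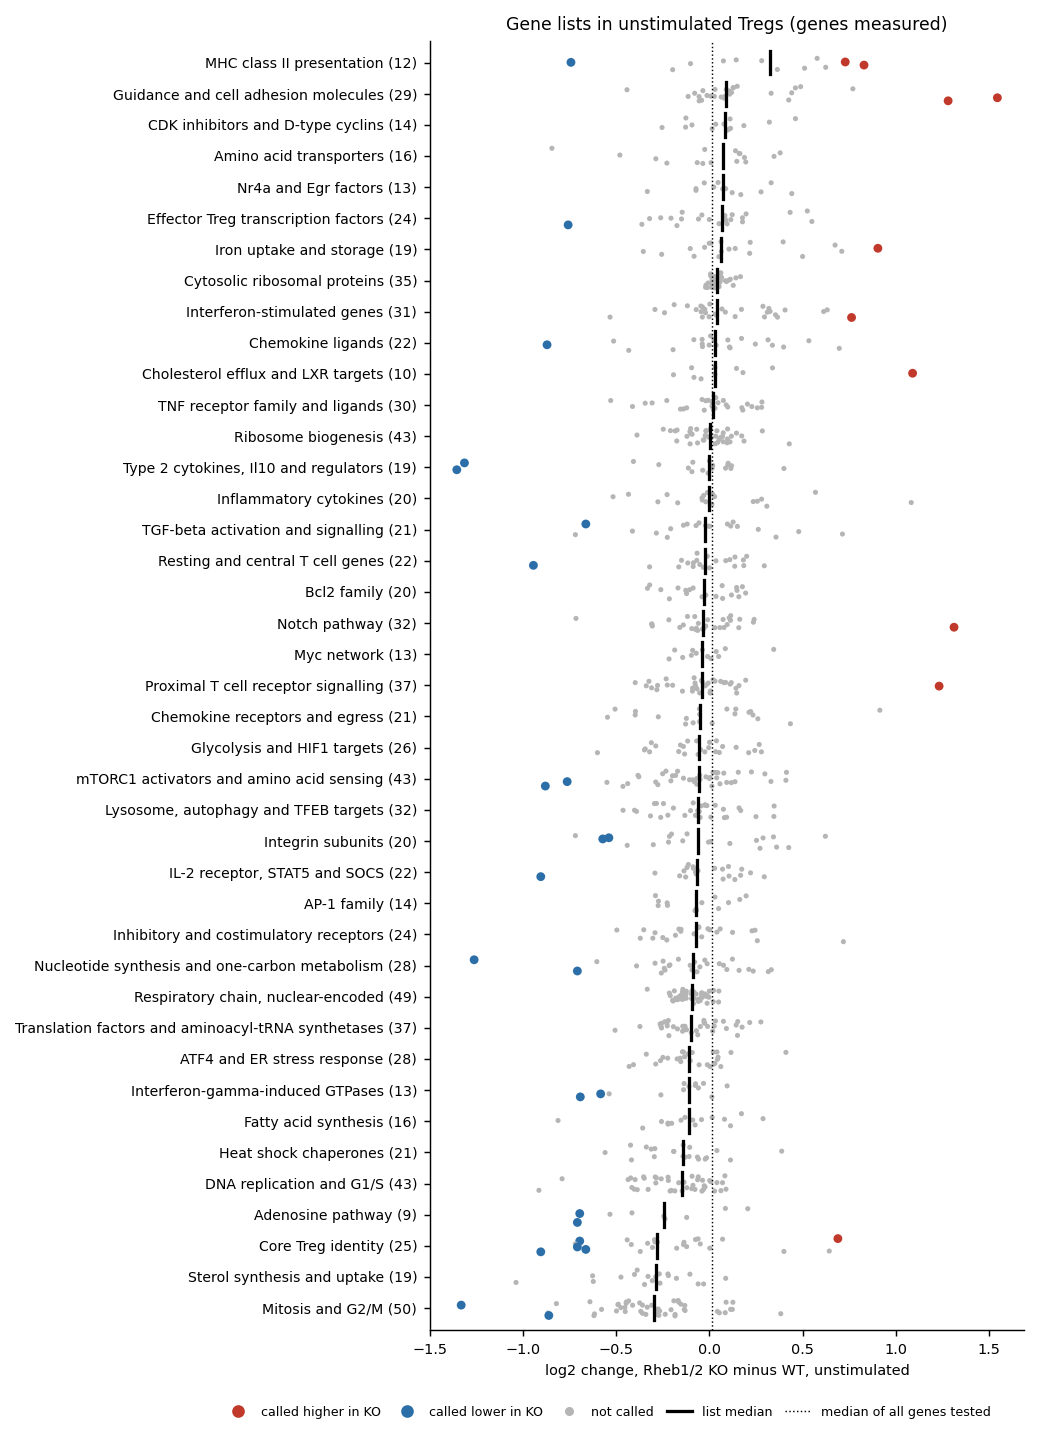
Log2 change between unstimulated Rheb1/2 KO and WT Tregs for every measured member of 41 gene lists, ordered by list median, with called genes in red (higher) or blue (lower), not called genes in grey, list medians as black bars and the median of all genes (0.02) as a dotted line. Mitosis, sterol synthesis and core Treg genes have the lowest medians (-0.30, -0.29 and -0.28) and MHC class II presentation the highest (0.32).

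Part of the Treg signature was lower in KO arrays. Of 25 core Treg genes, Socs2, Nt5e, Entpd1 and Lrrc32 fell, Penk rose and 20 were not called. The list median was -0.28, with 5 of 25 above 0, and the list mean ran from 10.12 to 10.30 in KO and from 10.39 to 10.43 in WT arrays. Socs2, an inhibitor of cytokine receptor signalling, measured 8.88, 8.79 and 8.89 in KO arrays, against 10.02, 9.78 and 9.47 in WT arrays (-0.91 ± 0.13, adjusted p = 0.00693). KO arrays were tight, and each lay below the lowest WT array. Socs2 was also the only called member of 22 IL-2 receptor, STAT5 and SOCS genes (median -0.07). Penk, which encodes the precursor of enkephalins, measured 11.30, 11.71 and 11.60 in KO arrays, against 10.80, 10.92 and 10.82 in WT arrays (0.69 ± 0.13, adjusted p = 0.0399; 3 of 12 refits, 0.60 to 0.81). The Penk call held only without unstimulated KO array 1 or stimulated WT array 2 or 3. The same macrophage markers were brighter in these KO arrays and the T cell markers slightly dimmer (median -0.07 over 9 genes); their part in the core Treg values was not tested.

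Treg identity genes that did not pass the test include Ctla4, the inhibitory receptor, with 11.58, 11.62 and 11.83 in KO arrays and 12.09, 12.01 and 12.04 in WT arrays (-0.37 ± 0.09, adjusted p = 0.123). Ikzf2 (Helios) measured 11.24, 11.29 and 11.37 in KO arrays and 11.19, 11.41 and 11.09 in WT arrays, and its groups overlapped. Il2ra (CD25), on which the cells were sorted, measured 6.65, 6.91 and 7.58 in KO arrays and 7.32, 7.40 and 7.29 in WT arrays. Those Il2ra values lie close to the negative control medians, which limits what the probe set shows. None of 24 inhibitory and costimulatory receptors and none of 30 TNF receptor family genes was called (medians -0.07 and 0.02).

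Both ectoenzymes that turn extracellular ATP into adenosine were lower. Nt5e, which makes adenosine from AMP, measured 10.01, 9.87 and 9.98 in KO arrays, against 10.63, 10.55 and 10.80 in WT arrays (-0.71 ± 0.10, adjusted p = 0.00693). Entpd1, which makes AMP from ATP, measured 8.87, 9.36 and 9.34 in KO arrays, against 10.002, 9.97 and 9.69 in WT arrays (-0.70 ± 0.14, adjusted p = 0.0463). The 2 falls were of similar size, but the Entpd1 call ended whichever array was left out (-0.80 to -0.54). Of 9 adenosine pathway genes the other 7 were not called, and the list median was -0.25.

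Lrrc32 and Itgb8 act in the release of active TGF-beta by Tregs, the first holding the latent form at the surface and the second being a subunit of the integrin that frees it. Lrrc32 measured 10.32, 10.50 and 10.67 in KO arrays, against 11.30, 10.96 and 11.22 in WT arrays (-0.66 ± 0.11, adjusted p = 0.0257; 8 of 12 refits, -0.77 to -0.58). The Lrrc32 call ended without unstimulated WT array 1 or 3 or unstimulated KO array 1 or 2. Itgb8 measured 8.51, 8.82 and 8.77 in KO arrays and 9.22, 9.49 and 9.55 in WT arrays, just short of the threshold (-0.72 ± 0.15, adjusted p = 0.0564). The other 20 of 21 TGF-beta genes were not called and the list median was -0.02. Outside the list, the BMP ligand Bmp7 (-1.09 ± 0.21, 3 of 12 refits) and the BMP-binding protein Twsg1 (-0.62 ± 0.10, 8 of 12 refits) also fell.

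Among 20 integrin subunits, Itga4 and Itgb1, which pair to form the VLA-4 receptor for VCAM-1 and fibronectin, fell together. Itga4 measured 10.83, 10.71 and 10.67 in KO arrays, against 11.27, 11.29 and 11.27 in WT arrays (-0.54 ± 0.09, adjusted p = 0.0188; 7 of 12 refits, -0.59 to -0.51, ending without any 1 unstimulated WT array or KO array 2 or 3). Itgb1 measured 10.46, 10.59 and 10.32 in KO arrays, against 11.10, 10.86 and 11.12 in WT arrays (-0.57 ± 0.11, adjusted p = 0.0397; 2 of 12 refits, -0.65 to -0.50, held only without unstimulated WT array 2 or stimulated WT array 3). Itga9, a further partner of Itgb1 that was not on the list, rose instead (0.97 ± 0.19, 3 of 12 refits). None of 21 chemokine receptor and egress genes was called, and Ccr3 stood at 0.91 ± 0.21 (adjusted p = 0.0977).

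Nfil3, a transcription factor induced by cytokines, was the only called member of 24 effector Treg transcription factors. It measured 10.14, 10.31 and 10.43 in KO arrays, against 11.09, 10.99 and 11.08 in WT arrays (-0.76 ± 0.10, adjusted p = 0.00536). Rora stood at 0.55 and Runx3 at 0.53, with no overlap between KO and WT arrays (adjusted p = 0.0636 and 0.0659). Among 22 genes of resting and central T cells only Dapl1, whose transcript is typical of naive T cells, was called, and it fell (-0.94 ± 0.13, adjusted p = 0.00693). The median of that list was -0.02.

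The largest fall among the called genes was that of Il10, the anti-inflammatory cytokine of effector Tregs. Il10 measured 7.53, 7.83 and 8.09 in KO arrays, against 9.09, 9.43 and 9.0003 in WT arrays, 0.391 of the WT signal (-1.36 ± 0.21, adjusted p = 0.0113; 11 of 12 refits, the call ending without unstimulated KO array 1 at -1.21). The gap between the highest KO and the lowest WT array was wider than the range within either group. Il4, the type 2 cytokine, measured 6.08, 5.85 and 5.94 in KO arrays, against 7.47, 6.88 and 7.46 in WT arrays (-1.31 ± 0.16, adjusted p = 0.00485). The KO values of Il4 lie below the 25th percentile of their arrays, where the size of a change is uncertain. These 2 were the only called members of 19 type 2 cytokine genes and regulators, which lay on both sides of 0 (9 of 19 above).

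None of 20 inflammatory cytokine genes was called. Il1b measured 8.22, 9.08 and 8.20 in KO arrays and 7.75, 7.05 and 7.45 in WT arrays (1.08 ± 0.28, adjusted p = 0.146). The part of the brighter macrophage markers in the Il1b value was not tested. Csf1, the macrophage growth factor, measured 9.94, 9.72 and 9.71 in KO arrays and 10.24, 10.17 and 10.26 in WT arrays (-0.43 ± 0.10, adjusted p = 0.0753). Of 22 chemokine ligands, Cxcl2, which attracts neutrophils, fell (-0.87 ± 0.16, adjusted p = 0.0398; 4 of 12 refits, -0.99 to -0.68, held only without unstimulated WT array 1 or any 1 stimulated WT array) and 21 were not called. Il18r1, a chain of the interleukin-18 receptor, rose (0.82 ± 0.11, adjusted p = 0.00536). Il18r1 measured 10.46, 10.83 and 10.68 in KO arrays, against 9.87, 9.76 and 9.87 in WT arrays.

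Among 29 guidance and cell adhesion molecules, Dscam and Sema6d rose, 27 were not called and 21 lay above 0 (median 0.09). Dscam, an immunoglobulin-family receptor of axon guidance, measured 9.35, 9.39 and 9.32 in KO arrays, against 7.63, 7.78 and 8.01 in WT arrays, 2.92 times the WT signal (1.55 ± 0.17, adjusted p = 0.00332). Sema6d, a transmembrane semaphorin, measured 8.77, 8.73 and 9.0004 in KO arrays, against 7.75, 7.55 and 7.36 in WT arrays (1.28 ± 0.13, adjusted p = 0.00157). Nrp2 (0.77) and Plxnb2 (0.44), a semaphorin co-receptor and a semaphorin receptor, were separate but not called (adjusted p = 0.0866 and 0.0876). Both were picked after their values were seen. The lowest member of the list was the semaphorin Sema4d, at -0.44.

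Jag1 was the only called member of 32 Notch pathway genes, with a list median of -0.03. It measured 8.39, 8.38 and 8.30 in KO arrays, against 6.81, 7.48 and 6.84 in WT arrays, 2.48 times the WT signal (1.31 ± 0.17, adjusted p = 0.00536). Jag1 lies below the negative control medians of WT arrays 1 and 3 (6.96 and 6.98), so the size of its rise is uncertain. Akr1c18, which inactivates progesterone, had the largest rise among the called genes, with 7.95, 7.67 and 8.32 in KO arrays against 5.58, 5.99 and 6.26 in WT arrays (2.04 ± 0.28, adjusted p = 0.00682). The WT mean of Akr1c18 lies below the 25th percentile of the arrays, so the size of its rise is uncertain.

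Rasgrp4, a Ras activator, measured 9.39, 9.04 and 9.39 in KO arrays, against 7.65, 8.49 and 7.99 in WT arrays (1.23 ± 0.18, adjusted p = 0.00829), and was the only called member of 37 genes of proximal T cell receptor signalling (median -0.04). Pik3ap1, an adaptor that recruits PI3 kinase, measured 8.70, 8.37 and 8.30 in KO arrays, against 7.35, 7.39 and 7.36 in WT arrays (1.09 ± 0.11, adjusted p = 0.00157). In the same KO arrays the macrophage markers were brighter, and their part in the Rasgrp4 and Pik3ap1 values was not tested. Tiam1, an activator of the GTPase Rac, measured 8.96, 8.92 and 9.20 in KO arrays, against 10.002, 9.88 and 10.01 in WT arrays (-0.94 ± 0.10, adjusted p = 0.00157). Ndrg1, whose transcript is known to respond to hypoxia and nutrient stress, rose (0.81 ± 0.10), while the glutathione transferase Gsta4 (-1.10 ± 0.14) and the activity-induced transcription factor Npas4 (-1.17 ± 0.17) fell. Neither the 14 AP-1 genes nor the 13 Nr4a and Egr genes had a called member (medians -0.07 and 0.07).

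MHC class II genes and myeloid markers were brighter in KO arrays. Of 12 genes of class II presentation, H2-Eb1 and H2-Ab1 rose, H2-Ob fell and 9 were not called (median 0.32). H2-Eb1, which encodes a class II beta chain, measured 10.47, 10.55 and 10.40 in KO arrays, against 9.72, 9.53 and 9.68 in WT arrays (0.83 ± 0.14, adjusted p = 0.0192; 8 of 12 refits, 0.77 to 0.87, ending without unstimulated WT array 2 or 3 or KO array 1 or 2). H2-Ab1 measured 10.01, 9.87 and 10.03 in KO arrays, against 9.30, 9.19 and 9.24 in WT arrays (0.73 ± 0.15, adjusted p = 0.0479; 2 of 12 refits, 0.70 to 0.78). H2-Ob, a subunit of the peptide-loading modulator H2-O, measured 9.88, 9.58 and 9.55 in KO arrays, against 10.50, 10.13 and 10.61 in WT arrays (-0.74 ± 0.14, adjusted p = 0.0399; 4 of 12 refits, -0.88 to -0.65).

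Of 17 macrophage markers C1qa, Slc40a1 and Ms4a7 rose, none fell and 14 were not called. All 17 lay above 0, with a median of 0.45, and 2 had means below the negative control medians in both groups. C1qa, a chain of complement C1q, measured 8.82, 8.68 and 8.66 in KO arrays, against 7.32, 7.55 and 7.88 in WT arrays (1.14 ± 0.19, adjusted p = 0.0228; 7 of 12 refits, 1.01 to 1.29, ending without unstimulated WT array 1 or 2 or any 1 unstimulated KO array). The iron exporter Slc40a1 (0.90 ± 0.17, 3 of 12 refits) and Ms4a7 (0.84 ± 0.16, 2 of 12 refits) followed. Csf1r, the receptor that defines macrophages, measured 8.62, 8.78 and 8.84 in KO arrays and 7.96, 8.27 and 8.66 in WT arrays and was not called (adjusted p = 0.431). Macrophage-expressed genes outside the list, Adgre4 (1.07 ± 0.16) and the RNA sensor Tlr13 (1.21 ± 0.22, 5 of 12 refits, dim in both groups), rose as well. Adgre4 lies below the negative control medians in the WT arrays, so the size of its rise is uncertain.

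Of 14 dendritic cell markers, 12 lay above 0 (median 0.26), and the called ones were H2-Eb1 and H2-Ab1. Of 10 NK cell markers Fcgr3, an Fc receptor that macrophages also express, rose (0.84 ± 0.14, 8 of 12 refits), the median was 0.26 and 6 had means below the negative control medians in both groups. B cell (median 0.23 over 10 genes), CD8 T cell (0.06 over 7), neutrophil (0.05 over 10), plasma cell (-0.14 over 8) and stromal and endothelial markers (0.03 over 9) had no called member. Of 10 conventional CD4 T cell markers only Dapl1 was called, lower, and none of 19 genes of the cell dissociation response was (medians 0.08 and -0.08).

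**Figure D4:**
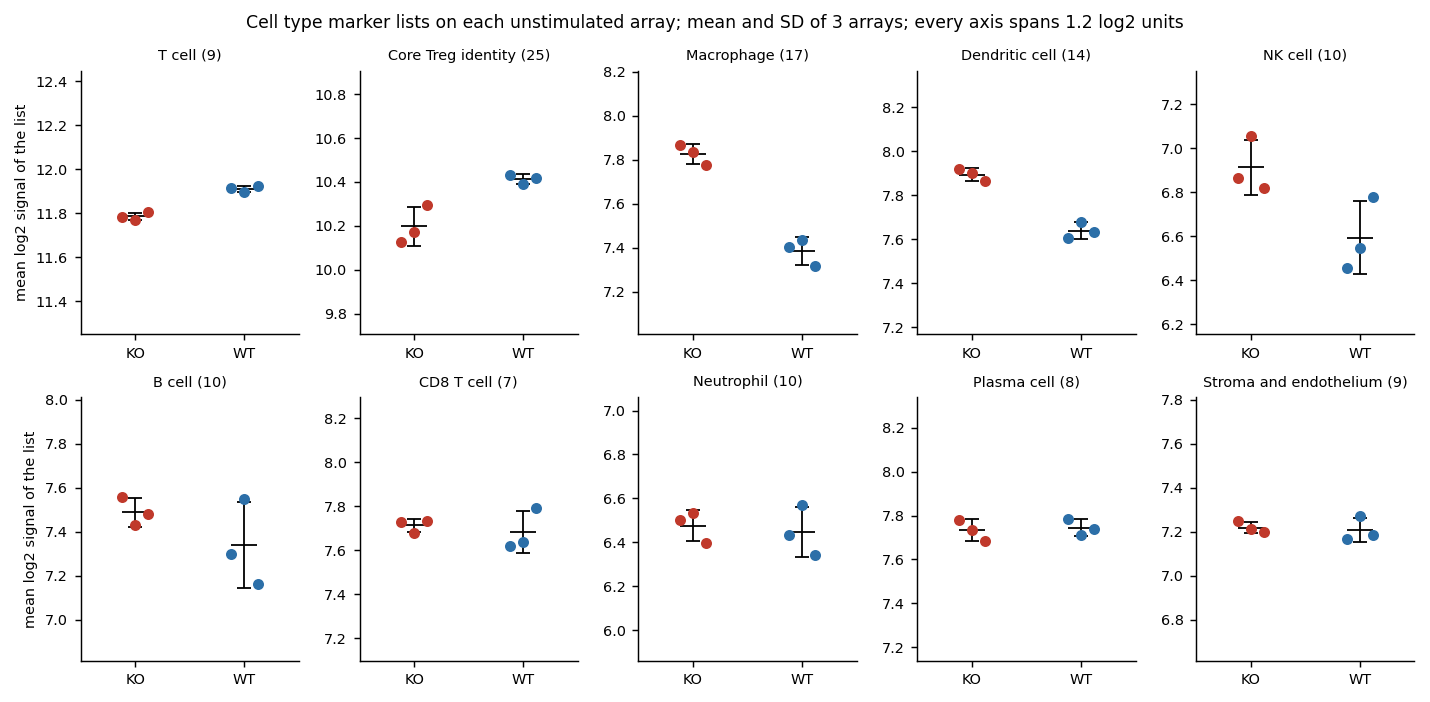
Mean log2 signal of 10 marker lists on each unstimulated array, Rheb1/2 KO (red, left) and WT (blue, right), with the number of genes in brackets, mean and SD of 3 arrays as bars, and y axes of equal length. Macrophage (7.77 to 7.87 in KO, 7.32 to 7.44 in WT), dendritic cell and, narrowly, NK cell lists are separate and higher in KO, and T cell and core Treg lists separate and lower.

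Interferon-responsive genes split. Of 31 interferon-stimulated genes only the antiviral enzyme Rsad2 was called, higher (0.76 ± 0.15, 3 of 12 refits), and the list median was 0.04. The interferon-gamma-induced GTPases Gbp2 (-0.69 ± 0.14, 1 of 12 refits) and Gbp3 (-0.58 ± 0.09, 10 of 12 refits) fell among 13 such genes, whose median was -0.11. The membrane-associated antiviral genes Ifitm1 (0.61 ± 0.12, 3 of 12 refits), Ifitm2 (0.64 ± 0.13, 1 of 12 refits) and Ifitm3 (0.76 ± 0.10, all 12), rose together. Ifitm3 measured 9.996, 9.95 and 9.81 in KO arrays, against 9.13, 9.09 and 9.25 in WT arrays. The 3 genes are near copies of one another, and how far their probes tell them apart was not tested. Ly6c2, a surface protein of memory T cells and monocytes, rose too, with 10.97, 11.03 and 11.45 in KO arrays against 10.14, 10.15 and 10.18 in WT arrays (0.99 ± 0.13, adjusted p = 0.00682). The part of the brighter macrophage markers in the Ly6c2 and Ifitm values was not tested.

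The Rheb1/2 KO effect was then set against that in stimulated Tregs of the same experiment, where 106 genes (0.543%) were called, 0.205% higher and 0.338% lower. Of the 99 genes called without stimulation, 28 were also called after it, all in the same direction, and 83 had the same sign. The share of all genes with the same sign in both states was not computed, so the 83 is a count only. The 28 are 28.3% of the 99 and 26.4% of the 106. They include Dscam, Jag1, Sema6d, Il18r1, Ndrg1, H2-Eb1 and Penk among the rises and Rheb, Cdk1, Xdh, Tiam1 and Itga4 among the falls. Both effects share 1 estimate of spread per gene but no arrays. The macrophage list, at a median of 0.45 without stimulation, had a median of -0.02 after it.

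The test of the difference between the unstimulated and the stimulated effect called no gene (0.0%), with 1207 (6.19%) at an unadjusted p below 0.05. Pik3ap1 came closest among the called genes named here, with an effect of 1.09 without and -0.12 with stimulation (difference 1.21 ± 0.16, adjusted p = 0.0704). C1qa had effects of 1.14 and -0.33 (difference 1.47 ± 0.27, adjusted p = 0.243) and Rasgrp4 of 1.23 and -0.16 (1.40 ± 0.25, adjusted p = 0.243). Il10 had effects of -1.36 and -0.74 (adjusted p = 0.821). For none of these is a difference between the states shown.

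In the Rag experiment, unstimulated RagAB KO arrays against their own WT had 22 called genes (0.113%, of which 0.0513% higher and 0.0615% lower) with 2 arrays a group, and 6.66% of genes had an unadjusted p below 0.05. The 2 arrays of each group differed in brightness: medians were 7.29 and 7.48 in RagAB KO arrays 1 and 2, against 7.52 and 7.18 in WT arrays 1 and 2, and the 99th percentiles were 11.34 and 11.86 against 12.11 and 11.46. Without the dimmer array of each group (RagAB KO array 1 and WT array 2) 23 genes were called, 13 of them among the 22, with each lone array assumed to vary like the stimulated ones. With single arrays left out, 21 genes were called without RagAB KO array 1, 530 without RagAB KO array 2, 1 without WT array 1 and 0 without WT array 2 (limma; 1090 genes at an unadjusted p below 0.05). Of the 99 genes called in Rheb1/2 KO, 6 were also called in RagAB KO (6.06% of the 99 and 27.3% of the 22), and 82 had the same sign. The share of all genes with the same sign in both knockouts was not computed, so the 82 is a count only. The 6 were Itga9, which rose, and Nt5e, H2-Ob, Dapl1, Prg4 and Ddx43, which fell. Without both dimmer arrays Itga9, Nt5e, Prg4 and Ddx43 were still called, H2-Ob and Dapl1 were not (adjusted p = 0.0647 for each), and none of the 6 was called without WT array 1 or without WT array 2. Nt5e measured 8.28 and 8.50 in RagAB KO arrays, against 10.37 and 10.01 in their WT arrays (-1.80 ± 0.24, adjusted p = 0.0139). The effect in Rheb1/2 KO, -0.71, was smaller, but the difference was not called (1.09 ± 0.21, adjusted p = 0.0542), and it was 1.17 without both dimmer arrays (adjusted p = 0.133).

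The test of the Rheb effect minus the Rag effect called 11 genes (0.0564%, of which 0.0154% positive and 0.041% negative), with 7.31% at an unadjusted p below 0.05. Of the 11, Il4 was the 1 also called in Rheb1/2 KO. Il4 measured 8.03 and 7.75 in RagAB KO arrays, against 7.22 and 5.75 in their WT arrays, which differ widely from each other. The effects were -1.31 in Rheb1/2 KO and 1.40 ± 0.47 in RagAB KO (the second not called, adjusted p = 0.608), a difference of -2.72 ± 0.48 (adjusted p = 0.0365). The difference was -1.85 without both dimmer Rag arrays (adjusted p = 0.575), -2.58 without RagAB KO array 1 (adjusted p = 0.121) and -1.98 without Rag WT array 2 (adjusted p = 0.219). It was called in 7 of 20 refits that each left out 1 array. Il10 stood at -1.36 and 0.50, and Socs2 at -0.91 and 0.23, and neither difference was called (adjusted p = 0.465 and 0.428).

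**Figure D5:**
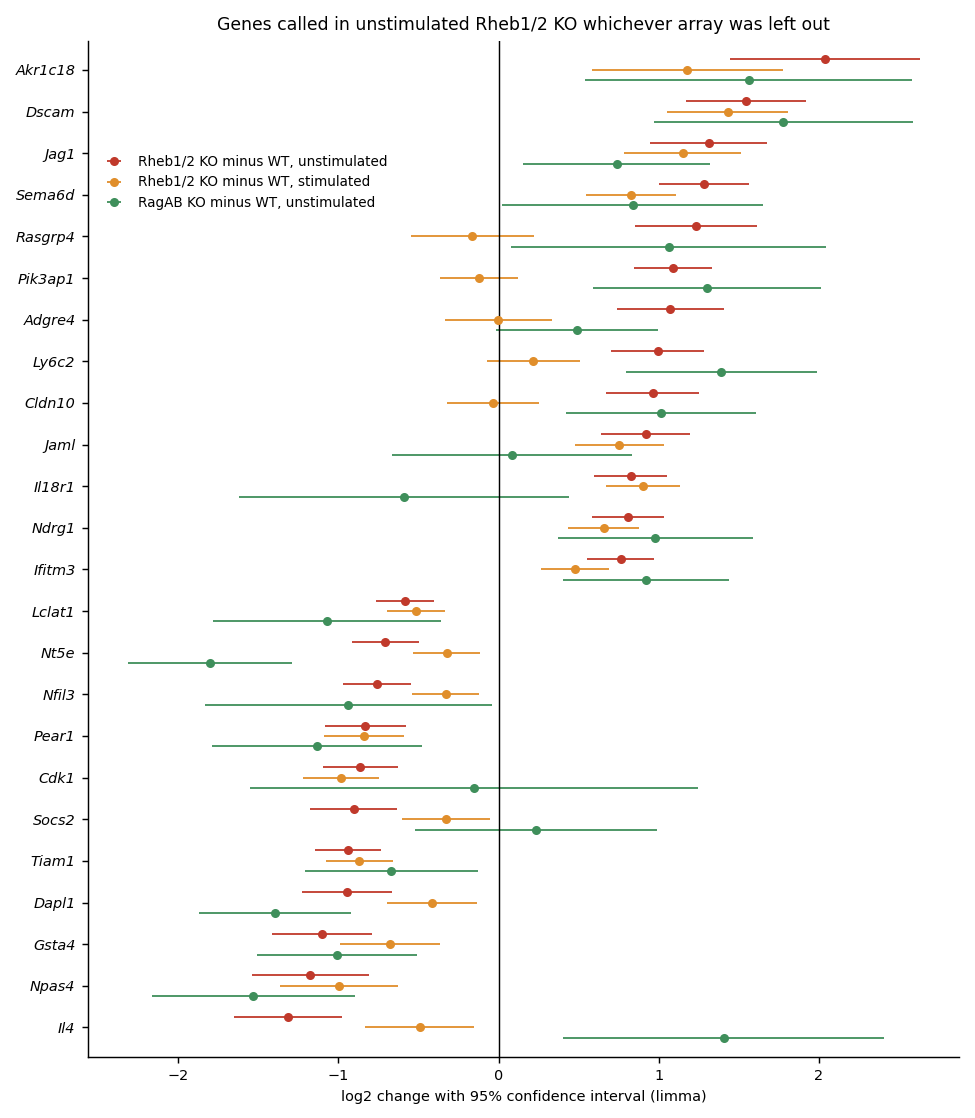
Log2 change with its 95% confidence interval for the 24 genes called in unstimulated Rheb1/2 KO whichever array was left out: unstimulated Rheb1/2 KO minus WT (red), stimulated Rheb1/2 KO minus WT (orange) and unstimulated RagAB KO minus WT (green, 2 arrays a group). Dscam, Jag1, Cdk1 and Tiam1 lie at similar values in both states of the Rheb experiment, Pik3ap1 and Rasgrp4 lie near 0 after stimulation, and Il4 lies on opposite sides of 0 in the 2 knockouts.

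Of the 99 called genes, 32 belong to a list and 67 to none, and 3 carry clone names in place of symbols. In 9 (Akr1c18, Aqp11, Tlr13, Rsad2, Ptgs2, Grtp1, B3galnt1, Ccdc152 and Il4) the dimmer group lay below the 25th percentile of its arrays. In 5 of these (Aqp11, Tlr13, Grtp1, B3galnt1 and Ptgs2) both means lay below the negative control medians, so the size of their changes is uncertain.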

How the data were processed

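Sorted Treg RNA was amplified, labelled as cDNA and hybridised to mouse Clariom S arrays, which read 1 sample each, per the labels' protocols. The deposited values are log2 signals that the authors made with RMA in Affymetrix Expression Console 1.1, per the submitters' processing notes. The sources used here do not say if the Rheb and Rag arrays went through RMA as 1 set. Of 28846 probe sets, 19572 had 1 gene symbol, and where a gene had several (55 genes) the one with the highest mean signal was kept, leaving 19505 genes.

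Group means were fitted with limma 3.58.1 (R 4.3.3) over the 12 arrays of the Rheb experiment, with no covariate, and p-values were adjusted over all genes by Benjamini-Hochberg. The Rheb effect minus the Rag effect was fitted over all 20 arrays. The fit was tested on simulated data with the residual spread of these arrays. Each of 10 draws changed 200 of 19505 genes by 0.5, 0.75, 1 or 1.5 log2, with noise independent between genes. The fit called 36.4% of genes changed by 0.5 log2, 70.4% at 0.75 and 89.2% at 1. Of its calls, 5.96% were genes without a change. These shares hold for that setting and may be worse in the real arrays. A gene not called may thus have changed by 0.5 log2. Arrays give no counts, so their number limits the precision. Alternatives were another scaling, variance prior, filter on dim genes, probe set rule and sets of arrays, a replicate block, and leaving out each array.

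The genes and the lists were chosen with earlier results of these data known. Named genes were Rheb and Rhebl1, the 10 largest called rises and falls, called list members, the 2 members of lowest p in lists with fewer than 2 calls, and fixed genes (Il2ra, Ctla4, Ikzf2, Myc, Mki67, Cdk1). Sesn3, Rptor, Deptor, Rrm1, Top2a, Idi1, Nsdhl, Il1b, Runx3, Nrp2, Plxnb2, Csf1r and called genes outside these rules were chosen after their values were seen. Promoters came from RefSeq (GRCm38.p6), matched by gene ID for 15691 of the 19505 genes.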

Additional observations from a re-analysis of the deposited data

Results flagged for a closer look

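Il4 differed between the knockouts by a test of the difference itself. Its log2 change was -1.31 in unstimulated Rheb1/2 KO and 1.40 in unstimulated RagAB KO, a difference of -2.72 ± 0.48 (95% interval -3.72 to -1.72, limma adjusted p = 0.0365). All 3 Rheb1/2 KO arrays lay below all 3 WT arrays, and both RagAB KO arrays (8.03 and 7.75) lay above both of their WT arrays (7.22 and 5.75). The RagAB KO effect alone was not called (adjusted p = 0.608), and its 2 WT arrays lie further apart than any 2 arrays of a group in the Rheb experiment. With 1 of the 20 arrays left out the difference ran from -3.46 to -1.98 and was called in 7 of 20 refits, ending, among others, without RagAB KO array 1 or Rag WT array 2, the dimmer arrays of their groups. Without both it was -1.85 (adjusted p = 0.575). The part of array brightness in the difference was not tested.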

How the results depend on the processing

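The 99 calls became 200 with a trended and robust variance prior, 27 with only the 2 groups compared and 28 with all 20 arrays, and between 39 and 104 when 1 array was left out. A second quantile normalization gave 83 calls (75 of them among the 99) and leaving out the 40% dimmest genes 113 (84 shared). No gene named here reversed its direction under any of these alternatives, and the medians of the sterol, mitosis, core Treg, macrophage and MHC class II lists kept their sign in all 19. The unstimulated effect minus the stimulated effect, with no call in the fit as reported, called 1 gene without dim genes, 7 with the trended prior and 1 with all 20 arrays. The Rheb effect minus the Rag effect, with 11 calls, gave 21 after quantile normalization, 17 without dim genes, 6 with the trended prior and 5 with only the 4 unstimulated groups. Leaving out 1 array gave 5 to 871 calls, with 165 without Rag WT array 1, 871 without RagAB KO array 2 and at most 14 without any other. Leaving out the dimmer array of each unstimulated Rag group, chosen after seeing the data, gave 3 calls there and 23 in place of 22 in RagAB KO against WT, where leaving out 1 unstimulated array gave 0 to 530. The Il4 difference also lost its call with the trended prior (adjusted p = 0.0907) and with only the 4 unstimulated groups (0.109), and the Nt5e difference gained one after quantile normalization (0.00702) and without dim genes (0.0423). The cause was not tested.

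Replicate numbers are shared between KO and WT arrays. Deviations of same-numbered unstimulated arrays correlated at -0.05, 0.02 and 0.18, and those of differently numbered arrays at -0.19 to 0.19. So few arrays cannot decide whether same-numbered arrays share more than a number. With a replicate block 69 genes were called (60 of them among the 99), and 10 in the Rheb effect minus the Rag effect. Signals near the negative controls limit what can be said of dim genes.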
